A study of Mus musculus with 6 samples.

Results

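The insulin-like growth factor (IGF) system of the retina was described here through 10 genes: the ligand genes Igf1 and Igf2, the receptor genes Igf1r and Insr, and the binding protein genes Igfbp2, Igfbp3, Igfbp4, Igfbp5, Igfbp6 and Igfbp7. They were chosen by name as the main components of the system, out of 32285 genes in the count table, and all 10 passed the minimum of 10 reads over all libraries that left 20021 genes for testing. Wild-type C57BL/6J mice of both groups went through oxygen-induced retinopathy (OIR), with 75% O2 from postnatal day (PN) 8 to PN13 and room air afterwards. OIR-CIH pups were then kept in chronic intermittent hypoxia (CIH) for 10 h each day, in 266 cycles of 135 s between 20.95% and 5% O2, and OIR-Norm pups received the same gas flow at constant O2. Bulk mRNA libraries were made from retinas at PN18, 3 of each group, to compare OIR with and without CIH. Retinas without OIR were not sequenced. The study assigned animals to the groups by cage, so that differences between cages cannot be told apart from CIH here. It also reported a prolonged growth delay in OIR-CIH pups. Total counts ran from 26289905 to 38010151. Rod markers summed to between 51464 and 68231 CPM (reads of a gene per 1e+06 counted, after scaling) in each library, as retinal tissue gives. Xist, the RNA of the inactive X chromosome, was 994, 1092 and 724 CPM in OIR-CIH and 298, 1653 and 777 CPM in OIR-Norm. The Y-linked Ddx3y was 21.2, 39.1 and 36.0 CPM in OIR-CIH and 61.1, 25.3 and 65.0 CPM in OIR-Norm. Both were present in all 6 libraries, which RNA of a single animal would not hold, and their mix differed between libraries. The study's protocol speaks of 3 eyes from each group, so the number of animals behind a library is uncertain and n counts libraries.

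IGF1 and IGF2 are small secreted growth factors that signal through the IGF1 receptor, a tyrosine kinase closely related to the insulin receptor, and onward through IRS proteins, PI3 kinase, AKT and mTOR to growth and survival. Binding proteins in the extracellular space carry the ligands, hold them away from the receptor or release them when proteases cut them. In the eye the system is known from retinopathy of prematurity, in which low circulating IGF1 after preterm birth goes with poor vessel growth, and IGFBP3 has been studied for its protection of retinal vessels.

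The promoters are shown because oxygen was the variable of the experiment. RefSeq windows (GRCm38.p6) of 300 bases, 250 before and 50 after a transcription start, were found for 9 of the 10 genes, 13 windows in all. They were searched for ACGTG and GCGTG, the core letters that hypoxia-inducible factors bind, on both strands and with overlapping matches counted. Matches lay in 7 of the 13 windows, while 43.8% of the 32851 windows in the table held one. Counted by gene, 6 of the 9 held a match in any window (Igf1, Igf2, Igf1r, Igfbp2, Igfbp3 and Igfbp7). Genes with several windows have more chances of a match, and the share over all genes was not computed. The windows below belong to the ligand with the lowest p-value and to the binding proteins with the largest fold change and the highest read count, written 5′ to 3′ along the gene's strand with matches in capitals. The Igf2 window is 1 of 4, at chr7:142658755-142659054 on the minus strand, the Igfbp3 window is at chr11:7213874-7214173 on the minus strand and the Igfbp5 window is at chr1:72874816-72875115 on the minus strand.
Igf2: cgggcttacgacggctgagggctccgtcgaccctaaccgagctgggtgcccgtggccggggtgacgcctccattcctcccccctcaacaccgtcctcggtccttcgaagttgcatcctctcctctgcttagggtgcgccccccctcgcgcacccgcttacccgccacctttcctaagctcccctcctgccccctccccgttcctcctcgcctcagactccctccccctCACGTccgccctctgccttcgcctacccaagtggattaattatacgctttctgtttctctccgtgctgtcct
Igfbp3: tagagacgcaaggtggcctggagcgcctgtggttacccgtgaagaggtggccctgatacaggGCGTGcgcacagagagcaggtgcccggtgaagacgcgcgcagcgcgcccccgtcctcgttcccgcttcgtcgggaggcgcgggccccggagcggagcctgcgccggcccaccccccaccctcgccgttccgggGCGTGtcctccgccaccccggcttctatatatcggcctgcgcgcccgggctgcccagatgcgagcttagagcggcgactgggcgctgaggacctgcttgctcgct
Igfbp5: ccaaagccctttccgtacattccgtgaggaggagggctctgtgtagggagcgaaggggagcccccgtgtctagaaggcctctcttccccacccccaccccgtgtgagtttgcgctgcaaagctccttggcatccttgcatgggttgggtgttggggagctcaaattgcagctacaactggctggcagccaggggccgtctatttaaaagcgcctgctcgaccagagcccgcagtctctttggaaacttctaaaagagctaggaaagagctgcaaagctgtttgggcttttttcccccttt
In the Igf2 window 1 match, read on the opposite strand, began 22 bases before the start, and the other 3 Igf2 windows held none. The Igfbp3 window held 2 matches, which began 188 and 55 bases before the start. The Igfbp5 window held none, nor did those of Igfbp4 and Igfbp6. A match describes letters only and says nothing of binding in these retinas.

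None of the 10 genes differed between OIR-CIH and OIR-Norm at the study's thresholds, an adjusted p under 0.05 and a log2 fold change beyond 0.5. The fold changes were fitted with edgeR's quasi-likelihood test over all 20021 genes, with Benjamini-Hochberg adjustment, and are given as OIR-CIH over OIR-Norm. The same test called 63 genes, or 0.315% of those tested, with 43 below and 20 above OIR-Norm. At any fold, 78 genes (0.39%) had an adjusted p under 0.05 and again 0 of the 10. An unadjusted p under 0.05 was reached by 2 of the 10, Igf2 and Insr, against 13.2% of all genes, and both were lower in OIR-CIH, as were 7.01% of all genes at that p. The 3 libraries of each group did not overlap for 1 of the 10, Insr, against 18.4% of all genes. All 10 estimates were below 0, against 50.5% of all genes, and when single libraries were left out between 8 and 10 of them were. The median estimate of all genes tested was -0.0028.

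**Figure D1:**
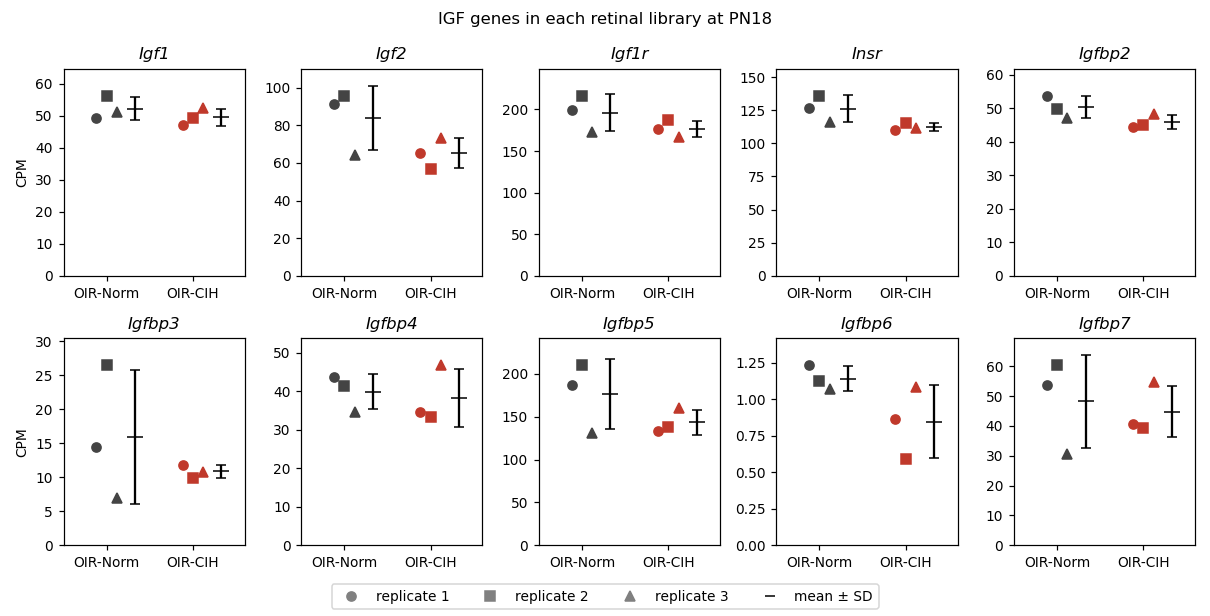
CPM (y axis, from 0) of each IGF gene in the 3 OIR-Norm (grey) and 3 OIR-CIH (red) libraries, with symbols for the replicate number and mean ± SD beside them. Insr is the gene whose groups do not meet, and OIR-Norm replicates 2 and 3 lie far apart for Igfbp3 and Igfbp7.

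Among the ligands, Igf1, the mediator of growth hormone action in many tissues, was 47.1, 49.1 and 52.3 CPM in the OIR-CIH libraries and 49.2, 56.2 and 51.0 CPM in the OIR-Norm libraries. The groups overlapped, and the means were 49.5 ± 2.61 and 52.1 ± 3.65 CPM (SD, n = 3). The log2 fold change was -0.07 with a standard error (SE) of 0.08 and a 95% interval from -0.24 to 0.10 (edgeR adjusted p = 0.733). On the fold scale that interval ran from 0.844 to 1.07.

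Igf2, the ligand best known from fetal growth, was 65.5, 57.0 and 73.2 CPM in OIR-CIH and 91.1, 95.8 and 64.2 CPM in OIR-Norm. OIR-Norm replicates 1 and 2 were above every OIR-CIH library, and OIR-Norm replicate 3 lay within the OIR-CIH range. The log2 fold change was -0.36 (SE 0.13, 95% interval -0.64 to -0.07), which had the lowest p-value of the 10 genes, with an unadjusted p of 0.0187 in edgeR and an adjusted p of 0.299. Over libraries alone, the exact two-sided permutation test gave p = 0.3, where 3 against 3 libraries cannot give less than 0.1. The call rested on OIR-Norm replicate 3: without it the log2 fold change was -0.52 and the edgeR adjusted p 0.0453, past both thresholds, and without OIR-Norm replicate 2 they were -0.25 and 0.627. Igf2 lies on chromosome 7, where the GENCODE M21 annotation places Gm49394 on the same strand over 3596 of its exon bases and the antisense gene Igf2os over 98. The deposited counts hold no entry for Gm49394. Igf2os had between 41 and 80 reads per library, against 1645 to 2807 for Igf2. Whether reads were counted with the strand of the library was not given in the sources used here, so that the 98 shared bases remain uncertain.

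The 3 genes whose log2 CPM followed Igf2 most closely over the 6 libraries, among 14791 genes with a mean of at least 1 CPM, were Amotl2, an angiomotin-like junction protein (Pearson r = 0.991), Selplg, the P-selectin ligand of leukocytes (r = 0.991), and Vsir, an immune checkpoint receptor (r = 0.99). These correlations describe 6 libraries that share their group split and their composition. Amotl2 was 60.1, 55.9 and 64.6 CPM in OIR-CIH and 74.6, 74.0 and 61.3 CPM in OIR-Norm, so that OIR-Norm replicate 3 was again the low library of its group. Its log2 fold change was -0.22 (edgeR adjusted p = 0.339), that of Selplg -0.32 (0.460) and that of Vsir -0.30 (0.478).

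Of the receptors, Igf1r, which binds both ligands, was 176, 187 and 167 CPM in OIR-CIH and 199, 217 and 173 CPM in OIR-Norm. The groups overlapped through OIR-Norm replicate 3, and the log2 fold change was -0.15 (SE 0.09, 95% interval -0.35 to 0.04, edgeR adjusted p = 0.504). Insr, the insulin receptor, was 109.8, 115.6 and 111.7 CPM in OIR-CIH and 126.4, 136.0 and 116.3 CPM in OIR-Norm. All 3 OIR-CIH libraries were below all 3 OIR-Norm libraries, by less than 1 CPM between the nearest pair. The log2 fold change was -0.17 (SE 0.08, 95% interval -0.33 to -0.0040), with a fitted fold of 0.890, and it did not pass after adjustment (edgeR unadjusted p = 0.0454, adjusted p = 0.367). The exact two-sided permutation test gave 0.1, the smallest p that 3 against 3 libraries allow.

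**Figure D2:**
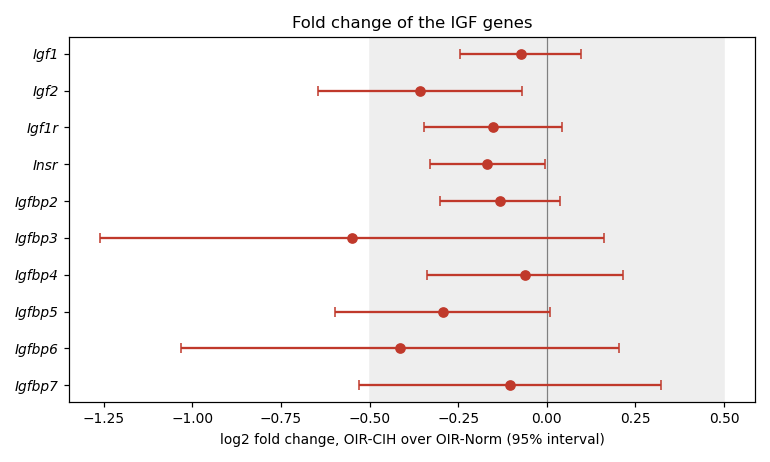
Log2 fold change of each gene, OIR-CIH over OIR-Norm, with a 95% interval computed from edgeR's F statistic. The shaded band spans -0.5 to 0.5, and the intervals of Igf2 and Insr are the 2 that lie wholly below 0.

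Among the binding proteins, Igfbp5, an extracellular matrix-bound member with the highest read count of the 6, was 132.8, 137.5 and 160.3 CPM in OIR-CIH and 187.2, 210.02 and 131.0 CPM in OIR-Norm. OIR-Norm replicates 1 and 2 were above all OIR-CIH libraries and replicate 3 was below all of them. The log2 fold change was -0.29 (SE 0.14, 95% interval -0.60 to 0.01, edgeR adjusted p = 0.392). Without OIR-Norm replicate 3 it was -0.47 with an adjusted p of 0.0668, and without OIR-Norm replicate 2 it was -0.15 (0.786).

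Igfbp3, the main carrier of IGFs in blood, was 11.9, 9.95 and 10.8 CPM in OIR-CIH and 14.4, 26.5 and 6.91 CPM in OIR-Norm. The highest and the lowest value of the 6 libraries were both in OIR-Norm, whose coefficient of variation was 61.9% against 8.75% in OIR-CIH. The log2 fold change was the largest of the 10 genes and also the least certain, at -0.55 (SE 0.33, 95% interval -1.26 to 0.16, edgeR adjusted p = 0.505). One library decided its direction: without OIR-Norm replicate 2 the estimate was 0.03, and without OIR-Norm replicate 3 it was -0.91 (adjusted p = 0.0716).

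Igfbp7, a secreted protein of vessel walls that binds IGFs weakly, was 40.5, 39.4 and 54.6 CPM in OIR-CIH and 53.8, 60.4 and 30.8 CPM in OIR-Norm. The OIR-Norm libraries again held both extremes. The log2 fold change was -0.10 (SE 0.20, 95% interval -0.53 to 0.32, edgeR adjusted p = 0.861) and 0.09 without OIR-Norm replicate 2. The annotation places 85 of its exon bases under the opposite-strand gene Polr2b, which had 3409 to 4818 reads per library against 979 to 2063 for Igfbp7.

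The other binding proteins did not pass the test either. Igfbp2, a binding protein with a preference for IGF2, was 44.5, 44.9 and 48.1 CPM in OIR-CIH and 53.7, 49.8 and 47.2 CPM in OIR-Norm, and its log2 fold change was -0.13 (95% interval -0.30 to 0.04, edgeR adjusted p = 0.498). Igfbp4, which the protease PAPP-A cuts to free IGF, was 34.5, 33.2 and 46.8 CPM in OIR-CIH and 43.6, 41.4 and 34.7 CPM in OIR-Norm. OIR-CIH replicate 3 was its highest library, and the log2 fold change was -0.06 (95% interval -0.34 to 0.22, edgeR adjusted p = 0.877), with a sign that turned in 3 of the 6 fits with a library left out. Igfbp6, the member that prefers IGF2 most strongly, was 0.863, 0.589 and 1.09 CPM in OIR-CIH and 1.23, 1.12 and 1.07 CPM in OIR-Norm. Those values rest on 17 to 41 reads per library, and the log2 fold change was -0.41 with a 95% interval from -1.03 to 0.20 (edgeR adjusted p = 0.569), so that a halving was not separable from no difference at this depth.

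**Figure D3:**
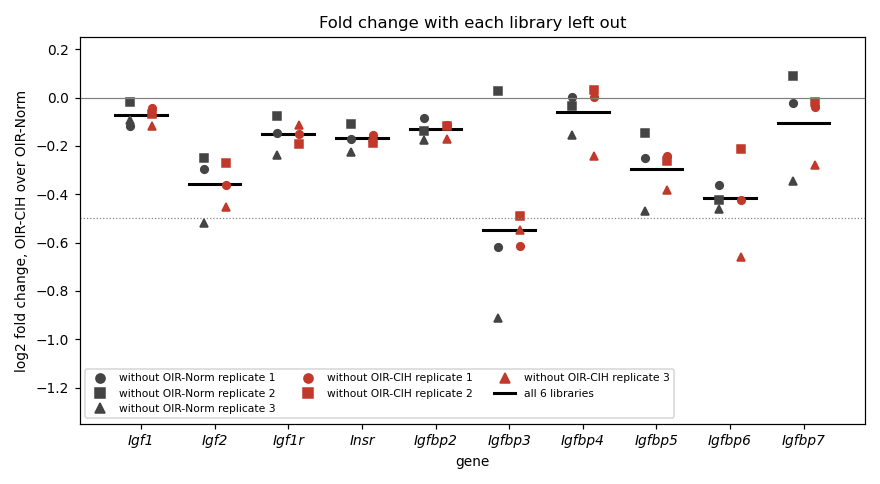
Log2 fold change of each gene, OIR-CIH over OIR-Norm (y axis), with all 6 libraries (black bar) and with each library left out in turn (symbols, grey for OIR-Norm and red for OIR-CIH). The dotted line marks -0.5; Igfbp3 moves from -0.91 to 0.03 with the OIR-Norm library that is left out.

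Levels were compared between the genes after division by exon length (CPM per kilobase of merged exons, GENCODE M21). The order depends on that length, which is 1209 bases for Igfbp7 and 6006 for Igfbp5. Before division, Igfbp5 (means of 144 CPM in OIR-CIH and 176 in OIR-Norm) was above Igfbp7 (44.8 and 48.3 CPM). Per length, Igfbp7 was highest at 38.5 CPM per kb over the 6 libraries, followed by Igfbp5 at 26.6 and Igfbp2 at 26.01 CPM per kb. Igf2 at 13.0 and Igf1r at 11.1 CPM per kb came next, then Igfbp4 at 8.84 and Insr at 8.68, and Igf1 at 5.13, Igfbp3 at 4.28 and Igfbp6 at 0.894 CPM per kb closed the order. Neighbors in this order overlapped in their range over libraries in all but 3 places, which lay between Igfbp2 and Igf2, between Insr and Igf1, and between Igfbp3 and Igfbp6. Igf2 was above Igf1, per length, in every library. The ratio of Igf2 to Igf1, per length, was 2.41, 2.01 and 2.42 in OIR-CIH and 3.20, 2.95 and 2.18 in OIR-Norm, and the groups overlapped. The ratio of Igf1r to Insr, per length, differed by less than the spread between replicates, at 1.29 ± 0.0546 in OIR-CIH and 1.27 ± 0.0466 in OIR-Norm (SD, n = 3).

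**Figure D4:**
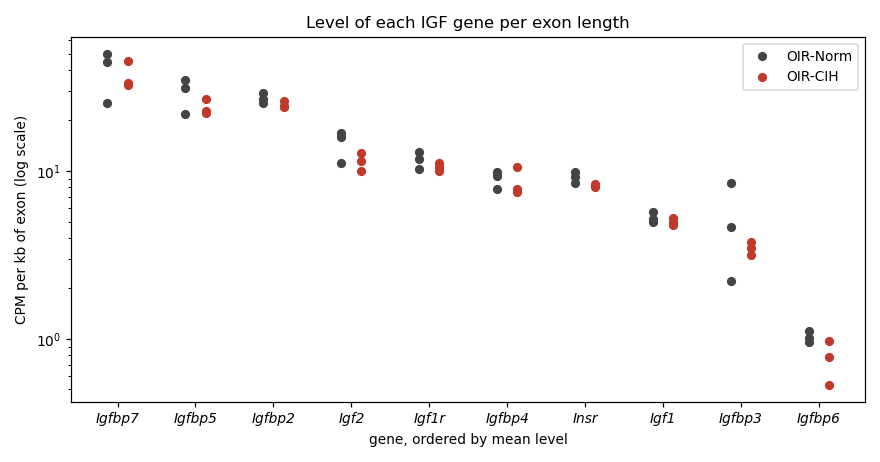
CPM per kilobase of exon (log axis) of each IGF gene in the 3 OIR-Norm (grey) and 3 OIR-CIH (red) libraries, ordered by the mean over all 6. Igfbp7, Igfbp5 and Igfbp2 lie above the other genes, and Igfbp6 lies below them all.

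Summed over the 6 binding proteins, the level was 92.1, 91.0 and 113 CPM per kb in OIR-CIH and 120.4, 130.7 and 83.8 CPM per kb in OIR-Norm. Both the highest and the lowest sum were in OIR-Norm, and the means of 98.7 ± 12.4 and 112 ± 24.6 CPM per kb (SD, n = 3) differed by less than the OIR-Norm spread. Apart from Igfbp5, the shares of the members in the sum overlapped between the groups. Igfbp7 held 37.4 ± 2.27% of it in OIR-CIH and 35.2 ± 4.22% in OIR-Norm. Igfbp2 held 25.3 ± 1.96% and 25.1 ± 4.99%, and Igfbp4 held 8.72 ± 0.592% and 8.26 ± 1.11%. The share of Igfbp5 was 24.0, 25.2 and 23.6% in OIR-CIH and 25.9, 26.7 and 26.01% in OIR-Norm, and these did not overlap, although the level of Igfbp5 itself did. Igfbp3 held 3.56 ± 0.528% and 4.31 ± 1.96%, and Igfbp6 held 0.763 ± 0.157% and 0.946 ± 0.188%.

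OIR-Norm replicates 2 and 3 stood apart in the same way for markers of vessel cells. In bulk RNA, fewer cells of a type and less RNA per cell cannot be told apart. On retinal flatmounts at PN18 the study measured a larger avascular area in OIR-CIH than in OIR-Norm. Of the 12 endothelial markers 10 were estimated lower in OIR-CIH, 0 were called, and their median difference was -0.23 on the log2 scale. Their summed level was 288, 293 and 330 CPM in OIR-CIH and 318, 379 and 291 CPM in OIR-Norm. Kdr held the largest part of that sum, at 165 to 179 CPM in every library (log2 fold change -0.007). The lowest p-values in that list were those of the VEGF receptor gene Flt1 (-0.24, edgeR adjusted p = 0.331), the junction gene Esam (-0.34, 0.487) and the endothelial cadherin gene Cdh5 (-0.64, 0.497). Cdh5 was 5.65, 6.10 and 10.6 CPM in OIR-CIH and 10.4, 20.0 and 4.96 CPM in OIR-Norm. All 10 pericyte and smooth muscle markers were estimated lower, with a median of -0.48 and 0 called, and they summed to 93.0, 108 and 141 CPM in OIR-CIH and 158, 243 and 99.96 CPM in OIR-Norm. Their lowest p-values were those of the smooth muscle myosin Myh11 (-1.16, edgeR adjusted p = 0.241), Rgs5 (-0.61, 0.323) and Abcc9 (-0.95, 0.366). Igfbp3, Igfbp5 and Igfbp7 had their highest library in OIR-Norm replicate 2 and their lowest in OIR-Norm replicate 3, as did Cdh5, while the pericyte sum was highest in OIR-Norm replicate 2 and lowest in OIR-CIH replicate 1. No endothelial marker was under 0.5 CPM on average, and 1 pericyte marker (Tagln) was. The part of vessel cells in the IGF values was not tested.

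Within OIR-Norm, the median levels of fibroblast, astrocyte and microglia markers were also highest in replicate 2 and lowest in replicate 3, over a narrower range than those of vessel markers. Of the 12 microglia markers 11 were estimated lower (median -0.30, 0 called), and they summed to 100.4, 97.4 and 112 CPM in OIR-CIH and 136, 132 and 118 CPM in OIR-Norm, without overlap. The fractalkine receptor gene Cx3cr1 (-0.65, edgeR adjusted p = 0.142), Sall1 (-0.82, 0.169) and Itgam (-0.52, 0.206) had the lowest p-values of that list. By flow cytometry the study counted fewer microglia in OIR-CIH than in OIR-Norm retinas at PN18. Of the 10 fibroblast and meningeal markers 9 were estimated lower (median -0.57, 0 called), at 103, 98.7 and 144.4 CPM summed in OIR-CIH and 184, 212 and 144.9 CPM in OIR-Norm. They were led by Fbln1 (-0.73, edgeR adjusted p = 0.142), Ogn (-0.62, 0.180) and Pdgfra (-0.46, 0.196). Pdgfra was also counted in the astrocyte list. Astrocyte markers included 1 called gene of 6, Gfap, the intermediate filament of reactive glia, at 61.5, 62.5 and 67.5 CPM in OIR-CIH and 158, 147 and 119 CPM in OIR-Norm (log2 fold change -1.15, edgeR adjusted p = 1.07e-04). The astrocyte list summed to between 182 and 221 CPM in OIR-CIH and between 249 and 348 CPM in OIR-Norm. Müller glia markers had 4 of 10 estimates lower and 6 higher, with a median of 0.06 and 0 called. All 10 rod markers were estimated higher in OIR-CIH, with a median of 0.15 and 0 called. Pigment epithelium markers had 6 of 10 estimates lower and 4 higher, a median of -0.10, sums between 305 and 677 CPM and 0 called. The lowest p-values for Müller glia were those of Car14 (0.40, edgeR adjusted p = 0.0989), Aqp4 (-0.31, 0.103) and Rlbp1 (0.34, 0.164). For rods they were those of Nr2e3 (0.55, edgeR adjusted p = 0.0764), Nrl (0.34, 0.316) and Rom1 (0.21, 0.553). The study's own list of genes higher in OIR-CIH includes Nr2e3. For pigment epithelium they were those of Ttr (0.75, edgeR adjusted p = 0.103), Lrat (0.80, 0.173) and Rgr (0.59, 0.215). Lens markers summed to 485 CPM in OIR-Norm replicate 2 and to between 15.6 and 82.2 CPM in the other 5 libraries, with a median of -1.85 over 8 tested genes and 0 called, and Crygs (-2.61, edgeR adjusted p = 0.301), Cryba1 (-2.55, 0.331) and Bfsp1 (-1.72, 0.331) led it. OIR-Norm replicate 2 also had the highest Xist of the 6 libraries. The part of these cells, of lens RNA and of the sex mix in the IGF values was not tested. The fold changes of all 10 IGF genes without OIR-Norm replicate 2 lay between -0.42 and 0.09.

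**Figure D5:**
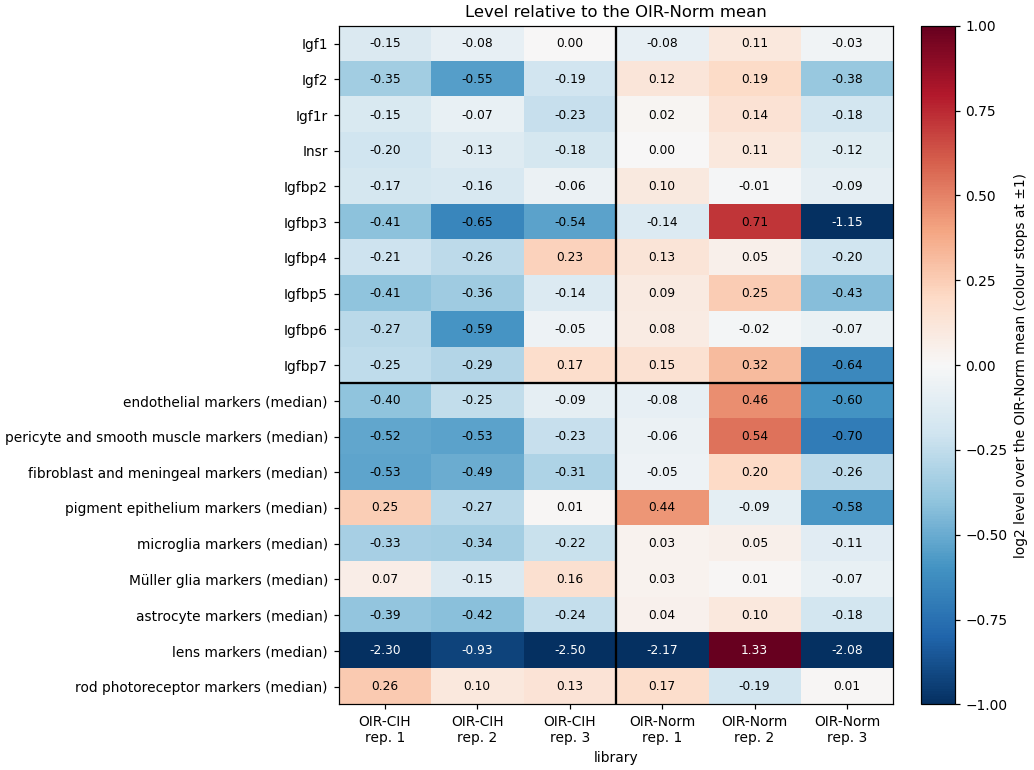
Level of the 10 IGF genes and the median over each marker list in the 6 libraries, as the log2 of CPM plus 0.5 over the OIR-Norm mean plus 0.5, with red above and blue below that mean. Igfbp3 reads 0.71 in OIR-Norm replicate 2 and -1.15 in replicate 3, beside 0.46 and -0.60 for the endothelial markers.

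Beyond the 10 genes, 4 lists of pathway and imprinted genes held no called gene in the main test. Of 14 other components (the decoy receptor gene Igf2r, acid-labile subunit, further binding proteins, the PAPP-A proteases with their stanniocalcin inhibitors, and IGF2 mRNA-binding proteins) 9 were estimated lower and 5 higher, with a median log2 fold change of -0.07. The 3 lowest p-values among them belonged to Stc2, Igf2bp1 and Insrr. Stc2, a stanniocalcin that blocks PAPP-A, was 28.8, 22.7 and 25.1 CPM in OIR-CIH and 19.2, 21.7 and 17.9 CPM in OIR-Norm, higher without overlap (log2 fold change 0.38, SE 0.11, edgeR adjusted p = 0.221). Igf2bp1, an mRNA-binding protein of fetal tissues, was 1.06, 0.589 and 1.03 CPM in OIR-CIH and 1.95, 2.03 and 1.29 CPM in OIR-Norm (log2 fold change -0.96, SE 0.29, edgeR adjusted p = 0.224). Insrr, the insulin receptor-related receptor, was 3.04 ± 0.222 CPM in OIR-CIH and 3.93 ± 0.461 CPM in OIR-Norm (SD, n = 3; log2 fold change -0.37, edgeR adjusted p = 0.372). Igfbp1, the binding protein that insulin and hypoxia regulate in liver, had 4 to 11 reads per library and Igfals and the insulin gene Ins2 were also under 0.5 CPM on average.

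The signalling chain downstream of the receptors, 32 genes from the IRS adaptors to AKT, mTOR and the FOXO factors, held 20 estimates below and 12 above 0, with 0 called and a median of -0.05 on the log2 scale. The lowest p-values were those of Irs2, an insulin receptor substrate (-0.21, edgeR adjusted p = 0.341), Tsc1, an mTOR inhibitor (-0.19, adjusted p = 0.342), and Foxo6 (0.41, adjusted p = 0.356). Gsk3b, a kinase that AKT inhibits, was 216 ± 1.39 CPM in OIR-CIH and 211 ± 17.0 CPM in OIR-Norm (SD, n = 3).

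FOXO targets, which insulin and IGF signalling hold down through AKT, had 11 of 15 estimates above 0, a median of 0.10 and 0 called. Bcl6, a transcriptional repressor, was 21.0, 16.9 and 17.3 CPM in OIR-CIH and 29.2, 25.6 and 23.9 CPM in OIR-Norm, and Gadd45a, a growth arrest gene, was 45.9, 35.6 and 33.7 CPM in OIR-CIH and 27.8, 24.8 and 29.4 CPM in OIR-Norm. Neither passed, with log2 fold changes of -0.51 (edgeR adjusted p = 0.0989) and 0.49 (adjusted p = 0.137), in opposite directions. Bcl6 passed the thresholds in DESeq2, with a minimum total of 1 read and with a replicate block. Cited2, a transcriptional coregulator, was at 0.28 (adjusted p = 0.267).

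Imprinted growth genes were included because Igf2 is expressed from the paternal allele and shares an imprinting control region with the maternally expressed H19. Of 13 listed genes 12 were tested, 8 were estimated lower and 4 higher, the median was -0.15 and 0 were called. H19 was 6.12, 8.77 and 6.72 CPM in OIR-CIH and 14.6, 14.7 and 10.2 CPM in OIR-Norm, without overlap, and its log2 fold change of -0.87 (SE 0.17) had an edgeR adjusted p of 0.0585. H19 passed the thresholds in the same 3 alternatives as Bcl6, and without OIR-CIH replicate 2 or OIR-Norm replicate 3. The ratio of Igf2 to H19 in CPM was 9.37 ± 2.48 in OIR-CIH and 6.35 ± 0.160 in OIR-Norm (SD, n = 3), and the groups overlapped through OIR-CIH replicate 2. Nnat, a paternally expressed proteolipid gene, was 97.3, 98.5 and 107.3 CPM in OIR-CIH and 74.2, 73.0 and 67.6 CPM in OIR-Norm. It was the list's gene with an adjusted p under 0.05 (0.00863 in edgeR), and its log2 fold change of 0.497 fell short of the 0.5 minimum. The study's own test, at the same thresholds, listed Nnat as higher in OIR-CIH. In the fits made here Nnat passed without OIR-CIH replicate 1 or 2 and without OIR-Norm replicate 1 or 2. Cdkn1c, a cell cycle inhibitor encoded in the imprinted domain next to that of Igf2 and H19, was 24.8 ± 2.73 CPM in OIR-CIH and 18.2 ± 1.03 CPM in OIR-Norm (SD, n = 3; log2 fold change 0.44, edgeR adjusted p = 0.132).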

How the data were processed

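Per the labels, RNA of 6 C57BL/6J mouse retinal libraries (3 OIR-CIH, 3 OIR-Norm, PN18) was made into stranded TruSeq mRNA libraries. The authors aligned reads with STAR 2.7.9a and deposited raw gene counts, 1 whole number per gene and library. Their methods and processing notes differ on the Ensembl release (GRCm38 in the notes), so no coordinates of counted genes are given; those of promoter windows are RefSeq's own. Which strand column was kept was not given in the sources used here. Symbols and exon lengths came from GENCODE M21, and 127 of 32285 identifiers had none.

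The IGF genes, marker lists and pathway lists were chosen with earlier results of these data known. CPM used TMM-scaled library sizes. The main test was edgeR 4.0.16 (R 4.3.3) quasi-likelihood on genes with a total of at least 10, with Benjamini-Hochberg adjustment, and genes were called at an adjusted p under 0.05 and a log2 fold change beyond 0.5. The authors' methods name DESeq. Alternatives were DESeq2 1.42.0, limma 3.58.1 on log2(CPM + 0.5), median-of-ratios scaling, a total of at least 1, filterByExpr, a replicate block and leaving out each library. From each list the called genes were named, or else the 3 with the lowest adjusted p. The 3 genes with the highest Pearson correlation to the IGF gene of lowest p were also named. Igfbp1, Igfals, Ins2, Kdr, Tagln and Gsk3b were named after their values were seen. Nothing in the sources used here ties the libraries to separate animals, so p-values measure the spread between libraries. Replicate libraries differed beyond sampling noise (chi-square per gene 13.2 to 27.5), so none was counted as a duplicate. The edgeR step was tested on simulated counts.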

Additional observations from a re-analysis of the deposited data

How the results depend on the processing

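Of 120 pairs of an IGF gene and an alternative, 114 kept direction and side of the thresholds, 5 turned sign and 1 passed. Igf2 passed without OIR-Norm replicate 3 (-0.52, edgeR adjusted p = 0.0453), giving 1 IGF gene called, at the study's thresholds and at any fold, in place of 0. With single libraries left out, its fold change ran from -0.52 to -0.25. Igfbp3 ran from -0.91 to 0.026 and Igfbp7 from -0.35 to 0.088, both above 0 without OIR-Norm replicate 2. Igfbp4 ran from -0.24 to 0.030, reaching 0.0032 without OIR-CIH replicate 1, 0.030 without OIR-CIH replicate 2 and 0.0025 without OIR-Norm replicate 1. The cause was not tested.

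Of all genes, DESeq2 called 135 (101 lower, 34 higher) and a minimum total of 1 read called 213 (153 lower, 60 higher), against 63 (43 lower, 20 higher). Without single libraries the count ran from 35, when OIR-CIH replicate 1 was left out, to 104, when OIR-Norm replicate 3 was, with 24 to 88 genes lower and 11 to 33 higher. The same-numbered libraries of both groups deviated from their group means with correlations of 0.162, 0.143 and -0.238. These 3 values of mixed sign cannot decide whether the numbers pair the libraries. The replicate block gave 84 calls, which shared 60 genes with the 63, with 32 higher, and 0 IGF genes. In the pathway lists 2 genes (Bcl6 and H19) were called by DESeq2, with a minimum of 1 read and with the replicate block, and between 0 and 2 (Nnat and H19) without single libraries. Igfbp6 rests on 17 to 41 reads per library. SEs and intervals were computed from edgeR's F statistic, which takes the spread of 3 libraries a group, moderated over all genes tested.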
